A study of Mus musculus with 23 samples.

Results

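B cell receptor signalling genes were examined in spleen B cells of the mouse, with and without a guide RNA to Irf8, which encodes an interferon regulatory factor. The set held 38 genes chosen by name for their known roles, in 12 classes from the receptor chains to the phosphatases that end the signal. They were 38 of the 10178 genes listed in both deposited tables, one of naive cells (11548 genes) and one of cultured cells (10574 genes). All 38 reached 1 RPKM (read counts scaled to gene length and library size) in at least 2 libraries of each table and were tested in both, among 10137 naive and 9986 cultured genes.

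The B cell receptor is a membrane immunoglobulin bound to the signalling chains CD79A and CD79B. Antigen binding lets Src family kinases phosphorylate these chains, which recruits the kinase SYK, and SYK, BTK, the adaptor BLNK and phospholipase PLCG2 then open the calcium, NF-kB and Ras branches. Inhibitory receptors such as CD22 recruit the phosphatase SHP-1, the product of Ptpn6, or SHIP-1, the product of Inpp5d, and damp the response. B cells that become plasma cells are known to lose much of this machinery as they turn to antibody secretion.

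PolyA RNA of sorted cells was sequenced in 23 libraries. The sort took Thy1.1-positive cells as IRF8 KO, which carried an Irf8 guide, and Thy1.1-negative cells as IRF8 WT, which carried none. Naive B cells (B220-positive, without CD11b, F4/80 and Thy1.2, and untreated) gave 3 KO libraries of guide 1 with 3 WT libraries of the same arm, and 3 KO libraries of guide 2 with 3 WT libraries of that arm. Culture for 72 hours in IL-5 at 5 ng/ml, in IL-2 at 20 ng/ml and in LPS at a labelled 20 mg/ml gave the other cells. Of these, activated B cells, with GL7 and without CD138, gave 3 KO and 3 WT libraries. Plasmablasts, CD138-positive with full or intermediate B220 and called plasma cells in a label, gave 3 KO and 2 WT libraries. The cultured KO cells carried guide 1, and none of the 23 libraries was a WT plasmablast library with the number 3. Neither the strain nor the age of the mice, nor the way the guide was delivered, is given in the labels. No group carried a guide to another gene, so loss of Irf8, carrying a guide and the Thy1.1 sort cannot be told apart in any KO comparison.

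Irf8 transcripts were measured first, since they check the labels. In naive cells Irf8 stood at 47.6 to 77.7 RPKM in the 6 KO libraries, against 79.8 to 98 RPKM in the 6 WT libraries, with no overlap. In plasmablasts it stood at 17.5, 21.4 and 24.2 RPKM in KO, against 24.6 and 17.6 RPKM in WT, which overlap. Activated KO libraries 1 and 2 had 69.2 and 68.1 RPKM, against 108 and 93.6 RPKM in activated WT libraries 1 and 2. At number 3 the order was the other way round, with 92.4 RPKM in the library labelled KO and 60.0 RPKM in the library labelled WT. Thy1, the gene of the sorted marker, was also reversed there, at 0.093 RPKM in the library labelled KO and 25.7 RPKM in the library labelled WT. Naive WT library A of the guide 1 arm held 4.93 RPKM of Thy1, against at most 0.052 RPKM in the other naive WT libraries.

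By the size of the steps between values, naive libraries held about 14500000 to 22200000 reads in genes and cultured ones 4300000 to 26900000, but plasmablast KO library 3 held 51000. There, 26 of the 38 genes rested on fewer than 10 reads (median 6, range 1 to 32). In library A of the naive guide 1 KO group 1405 genes were listed at 0, against 66 to 291 in each other naive library. These 5 libraries stand apart or go against their labels. Most counts of called genes of the set are therefore given with all libraries and then without those 5. That leaves out 2 of 12 naive and 3 of 11 cultured libraries. Other values are of all libraries unless stated otherwise, and many differences of single genes are given only that way. The receptor chain gene Cd79a was abundant throughout, at 1120 to 1490 RPKM in naive, 880 to 1690 RPKM in activated and 428 to 1150 RPKM in plasmablast libraries. Pax5 and Spib, transcription factor genes of mature B cells, were low in plasmablasts, at 0.4 to 3.97 RPKM and 0 to 1.54 RPKM, against 2.91 to 7.9 RPKM and 28.6 to 55.8 RPKM in activated libraries. Of 10 T cell markers only Thy1 was in either table.

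**Figure D1:**
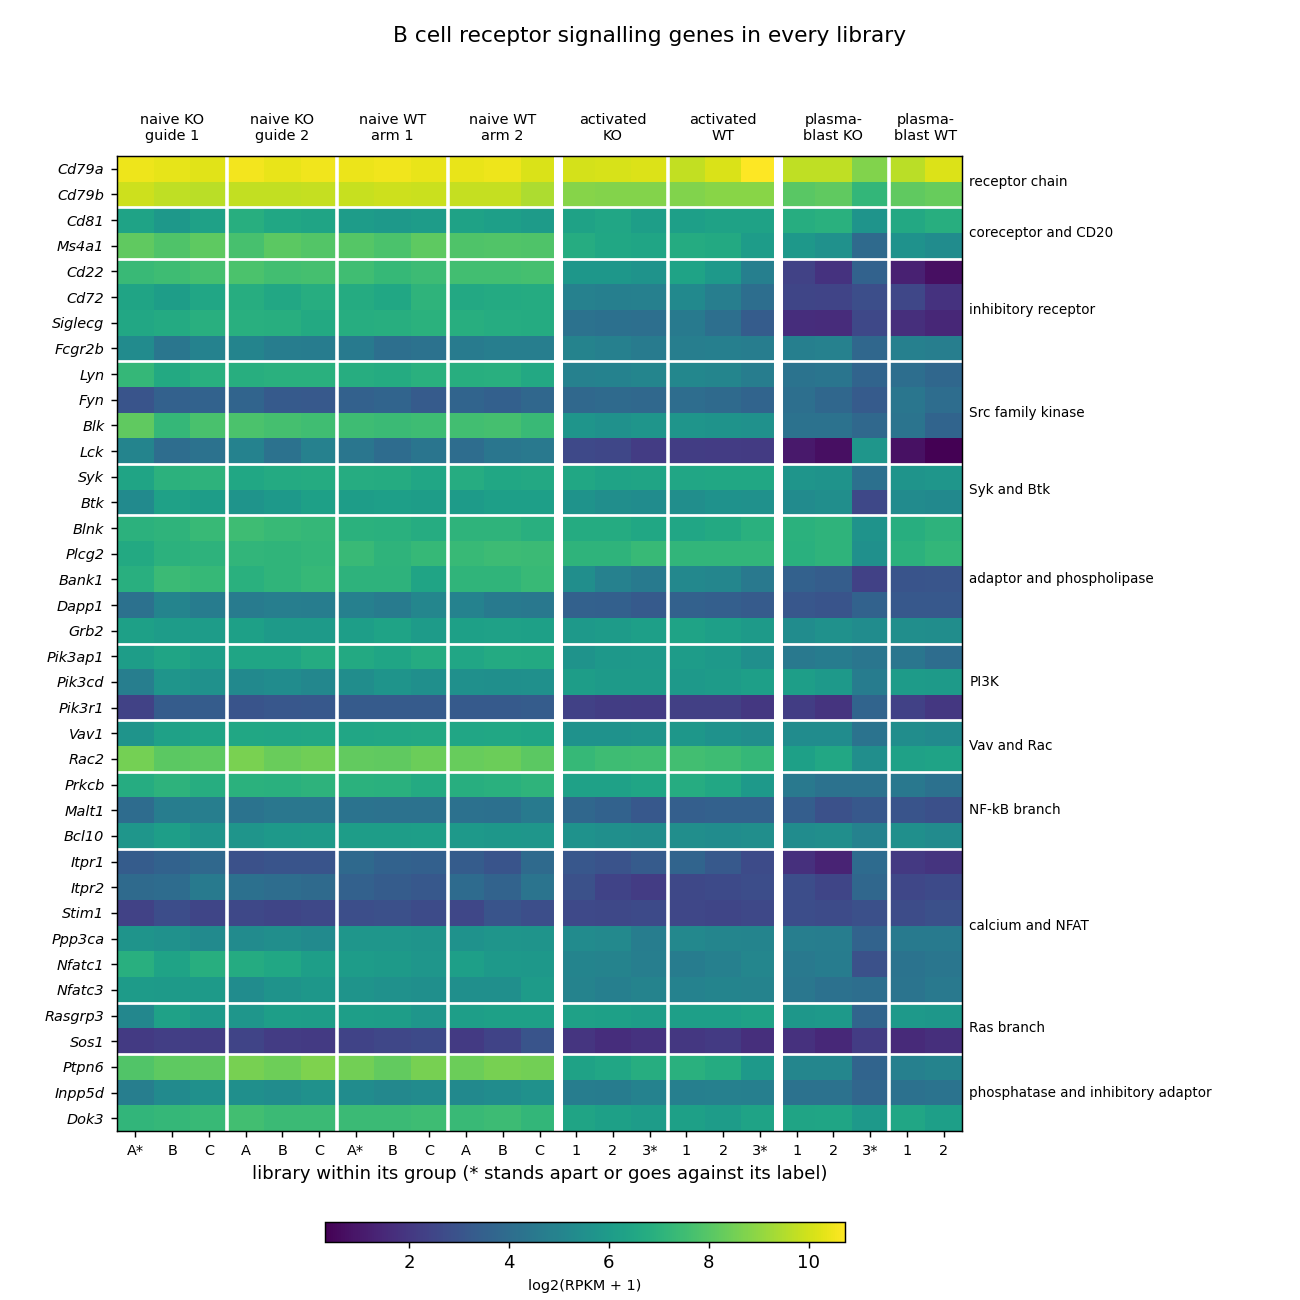
Level of each of the 38 genes, as log2(RPKM + 1) in colour, in each of the 23 libraries, with genes in rows by class and libraries in columns by stage and genotype. Most rows darken from naive through activated cells to plasmablasts, while columns of KO and WT look alike within a stage, and plasmablast KO library 3 (51000 reads) differs from its neighbours.

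IRF8 and its partner PU.1 are known to bind jointly at the ETS-IRF composite element, GGAA and GAAA parted by any 2 bases, so the promoters of the set were searched for these letters on both strands. The window ran from 250 bases before to 50 bases after each annotated start (RefSeq, GRCm38.p6), and 29 of the 38 genes had at least 1 entry. Of the 29 genes 3 held the letters, Fcgr2b, Bank1 and Dapp1, against 3.16% of all 27025 genes (2.72% of 32851 promoters). All 3 carried the same 10 letters, TTTCACTTCC on the gene strand. These letters were picked from the 3 genes themselves. On either strand they stand in 74 of the 892 promoters that hold the motif, and in 0.225% of all promoters. The 80 bases before the start of each are shown so that the shared site can be compared, with the site in capitals. All 3 genes lie on the minus strand, and the sequences read in the direction of the gene.
Fcgr2b, chr1:170976072-170976151: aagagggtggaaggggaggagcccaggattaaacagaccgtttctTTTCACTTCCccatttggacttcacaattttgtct
Bank1, chr3:136326067-136326146: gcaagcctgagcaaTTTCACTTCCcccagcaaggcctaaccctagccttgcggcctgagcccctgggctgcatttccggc
Dapp1, chr3:137981550-137981629: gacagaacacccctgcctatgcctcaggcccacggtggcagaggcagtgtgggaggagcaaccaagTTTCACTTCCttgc
The site begins 35 bases before the start in Fcgr2b, 66 bases before it in Bank1 and 14 bases before it in Dapp1. For Bank1 this is the start of the RefSeq promoter entry, which lies inside the annotated gene, so the site is also within the gene span given for Bank1 further on. For Fcgr2b and Dapp1 the start is the outer end of the gene. A second motif, the interferon-stimulated response element (GAAA, any 2 bases and GAAA again), which shares its closing letters with the first, was in none of the 29 genes and in 3.99% of all genes (3.44% of promoters). The letters are a description, and binding was not measured. Fcgr2b encodes the inhibitory Fc receptor, Bank1 a scaffold that joins LYN to calcium release, and Dapp1 an adaptor recruited by phosphoinositides. None of the 3 passed the test in naive KO against WT cells, with log2 differences of 0.33 for Fcgr2b (adjusted p = 0.377), 0.15 for Bank1 (adjusted p = 0.659) and -0.10 for Dapp1 (adjusted p = 0.806, limma).

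Naive KO and WT cells were compared to ask whether the signalling machinery differs before stimulation. Of the 38 genes 1 rose and 0 fell, Nfatc1, at an adjusted p under 0.05 over all 10137 genes (limma on log2(RPKM + 1)). Over all tested genes 1.88% were called, 1.03% higher and 0.858% lower, so 1 of 38 is close to the background. The median log2 difference was -0.03 over the 38 genes and -0.02 over all genes. Without the 2 libraries Nfatc1 was again the 1 gene called, against 3.36% of all genes, 1.83% higher and 1.52% lower.

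Nfatc1 (Entrez 18018) encodes NFATc1, a transcription factor that enters the nucleus when calcium activates calcineurin. Its level was 118, 81.1 and 113 RPKM in KO libraries A, B and C of guide 1, against 66.5, 61.7 and 54.7 RPKM in the WT libraries of that arm. With guide 2 it was 104, 90.5 and 69.4 RPKM in KO libraries, against 71.1, 59.6 and 57.4 RPKM in WT libraries. All KO libraries of guide 1 lay above all WT libraries, and with guide 2 KO library C fell just below WT library A. The log2 difference over both guides was 0.61 (SE 0.12, adjusted p = 0.0266), and 0.59 (adjusted p = 0.0243) without the 2 libraries. Leaving out any of 8 single libraries, or the trend in the spread, ended the call, and over 20 alternatives the difference was 0.54 to 0.69 with adjusted p from 0.00448 to 0.0831. In each arm alone it was not called, at 0.75 with guide 1 (adjusted p = 0.0632) and 0.47 with guide 2 (adjusted p = 1).

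The 4 genes next in order of p were not called. Blnk, the adaptor that gathers BTK and PLCG2 at the receptor, stood at 152 ± 19.6 RPKM in KO and 123 ± 10.8 RPKM in WT (SD, n = 6 each). Its log2 difference was 0.30 (SE 0.09, adjusted p = 0.116), and 0.36 (adjusted p = 0.0518) without the 2 libraries. Within each arm every KO library was above every WT library for Blnk, as for 4 of the 38 genes and 7.68% of all genes with guide 1 and for 2 of the 38 and 7.33% of all genes with guide 2. Ppp3ca, the catalytic subunit of calcineurin, averaged 42.9 ± 5.28 RPKM in KO and 52.0 ± 2.05 RPKM in WT, a difference of -0.28 (adjusted p = 0.147). Ppp3ca was the 1 gene of the set whose KO libraries all lay below all WT libraries once the 2 libraries were left out, as did 1.52% of all genes. Plcg2, the phospholipase that makes the calcium-releasing messenger, averaged 132 ± 17.6 RPKM in KO and 159 ± 14.3 RPKM in WT, a difference of -0.28 (adjusted p = 0.152). Itpr2, an IP3 receptor of the endoplasmic reticulum, averaged 16.3 ± 3.26 RPKM in KO and 12.2 ± 4.06 RPKM in WT, a difference of 0.43 (adjusted p = 0.226).

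**Figure D2:**
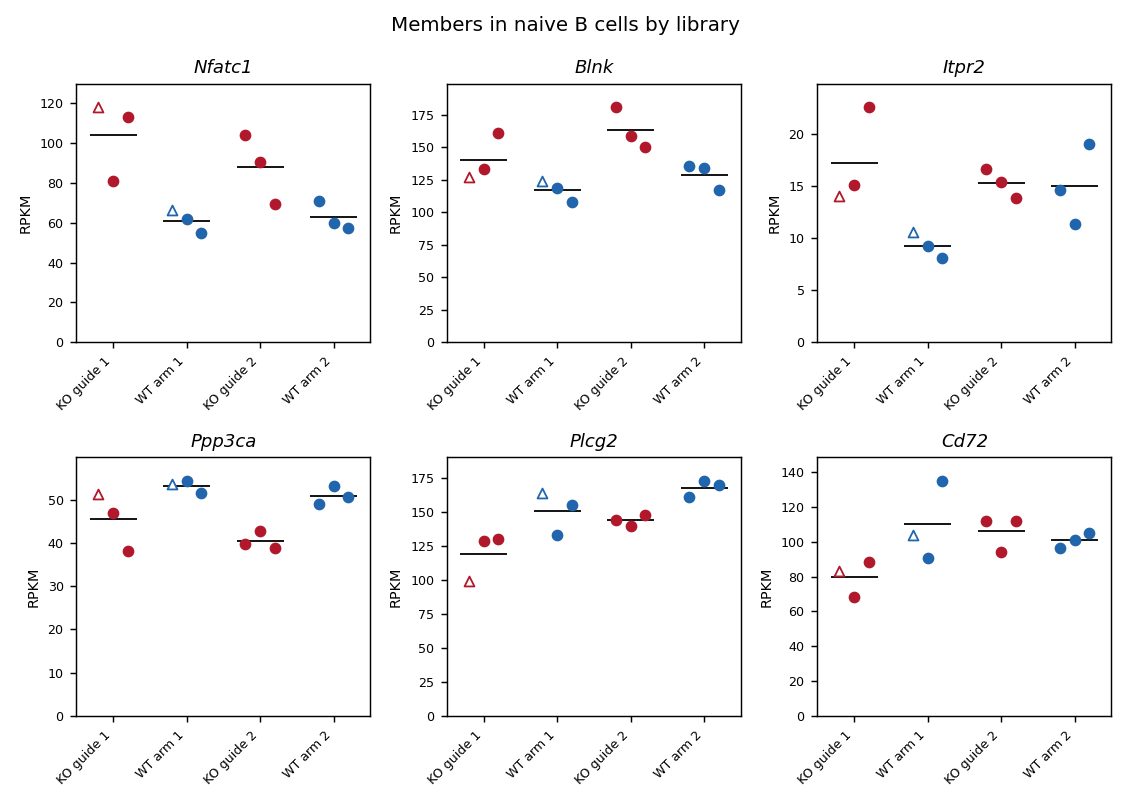
RPKM of 6 genes in each naive library, with KO left of WT in each guide arm; bars are group means, and open triangles mark the 2 libraries that stand apart. Nfatc1 and Blnk are higher in KO in both arms and Ppp3ca and Plcg2 lower, while Itpr2 and Cd72 separate the genotypes in the guide 1 arm and not in the guide 2 arm.

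The receptor chains and the first kinases differed little. Cd79a was at 1390, 1290 and 1220 RPKM in KO of guide 1 and 1490, 1320 and 1460 RPKM in KO of guide 2, against 1360, 1430 and 1340 RPKM and 1330, 1400 and 1120 RPKM in the WT libraries of those arms. Cd79b ranged from 796 to 989 RPKM in KO and from 699 to 964 RPKM in WT. The groups overlap for both chains. Lyn, the main Src family kinase of B cells, was at 149, 97.3 and 116 RPKM in KO of guide 1 and 113, 120 and 121 RPKM in KO of guide 2, against 111, 104 and 120 RPKM and 113, 116 and 96.1 RPKM in WT. Syk ranged from 83.5 to 130 RPKM in KO and from 89.0 to 107 RPKM in WT, and Btk from 38.7 to 76.3 RPKM in KO and from 64.5 to 72.7 RPKM in WT. The lowest Btk and Syk values and the highest Lyn value were all of KO guide 1 library A. Log2 differences of these 5 genes lay between -0.20 for Btk and 0.11 for Lyn, with adjusted p from 0.605 to 0.978. All 4 inhibitory receptors were likewise not called, at 0.08 for Cd22, -0.19 for Cd72, -0.06 for Siglecg and 0.33 for Fcgr2b.

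The arms were then compared. With guide 1, 0 of the 38 genes were called, against 1.11% of all genes, and 10 had an unadjusted p under 0.05. The lowest p values were those of Nfatc1 (0.75), Itpr2 (0.80, adjusted p = 0.0943), Pik3ap1 (-0.37, adjusted p = 0.178) and Cd72 (-0.44, adjusted p = 0.187), given as log2 differences. Pik3ap1 encodes BCAP, which couples the receptor complex to PI3K, and CD72 is an inhibitory receptor. Itpr2 stood at 14.1, 15.1 and 22.6 RPKM in KO of guide 1, against 10.6, 9.22 and 8.06 RPKM in WT of that arm, with no overlap, and it was among the 4 genes counted above. Without the 2 libraries Itpr2 rose by 1.02 (adjusted p = 0.0452), against 1.79% of all genes called, 0.976% higher and 0.817% lower. With guide 2 Itpr2 stood at 16.7, 15.4 and 13.9 RPKM in KO, against 14.6, 11.4 and 19.1 RPKM in WT, and the groups overlap.

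With guide 2, 0 of the 38 genes were called, against 0.0296% of all genes, and 4 had an unadjusted p under 0.05. Lowest were Blnk (0.34, adjusted p = 0.899), Ppp3ca (-0.33, adjusted p = 0.968), Nfatc1 (0.47) and Cd81 (0.39, adjusted p = 1), the last a tetraspanin of the coreceptor complex. Without the 2 libraries 0 of the 38 genes were again called, against 0.259% of all genes. The difference between the guides was called for 0 of the 38 genes and 0 of 10137 (0%, limma), with 479 genes at an unadjusted p under 0.05. It was 0.46 for Ptpn6, -0.75 for Itpr2, 0.51 for Cd72 and 0.30 for Dok3, an inhibitory adaptor, each at an adjusted p of 0.918.

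**Figure D3:**
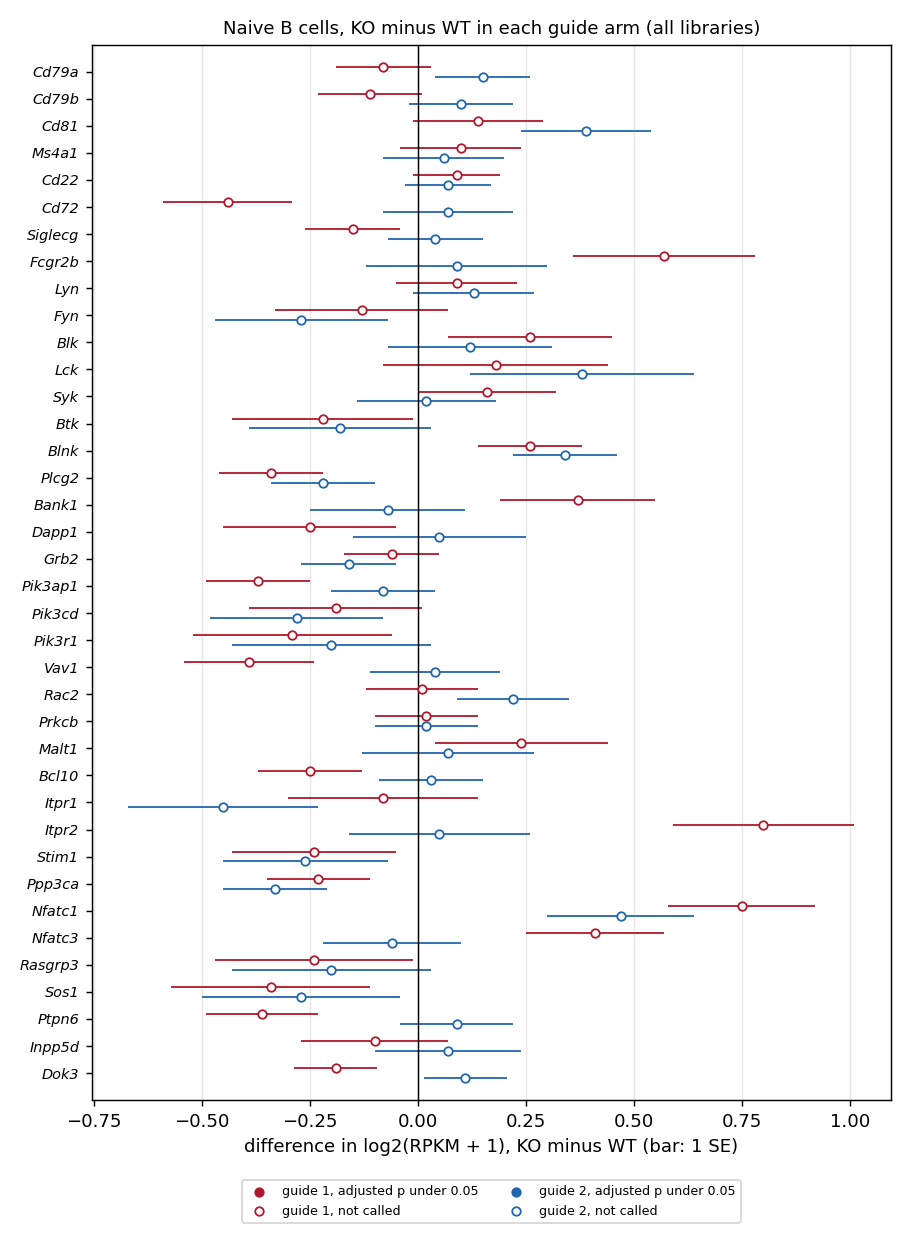
Difference in log2(RPKM + 1) of each gene between naive KO and WT cells in the guide 1 and guide 2 arms, all libraries, with bars of 1 SE; no point is filled because none was called within an arm. Nfatc1 and Blnk lie right of 0 and Ppp3ca and Plcg2 left of 0 in both arms, and Itpr2 lies at 0.80 with guide 1 and 0.05 with guide 2.

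Beyond the 38 genes, 75 of 79 further genes of the pathway were tested in naive cells, of which 2 rose and 1 fell, against 1.88% of all genes called. Cr2, the complement receptor CD21 of the coreceptor, was at 187 to 285 RPKM in KO and 57.4 to 157 RPKM in WT (log2 difference 1.16, adjusted p = 0.00493). Ptpn22, a phosphatase that restrains Src family and Syk family kinases, was at 33.9 to 61.4 RPKM in KO and 19.0 to 25.7 RPKM in WT (1.13, adjusted p = 0.00313). Prkcd, a protein kinase C known to limit B cell activation, was at 36.3 to 44.5 RPKM in KO and 47.1 to 59.7 RPKM in WT (-0.47, adjusted p = 0.0147). KO and WT libraries did not overlap for any of these 3 genes, against 0.957% of all genes higher and 0.927% lower in every KO library. Cr2 stood at 1.35 (adjusted p = 0.000177) and Ptpn22 at 1.1 (adjusted p = 0.00183) without the 2 libraries. Without the 2 libraries 4 rose and 2 fell, against 3.36% of all genes called, the further ones being Fgr, Nfatc2 and Rftn1.

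Markers of B cell subsets moved with genotype in the same libraries. The summed level of 6 marginal zone markers was 520 to 939 RPKM in KO of guide 1 and 523 to 883 RPKM in KO of guide 2, against 235 to 341 RPKM and 343 to 475 RPKM in the WT libraries of those arms. Of these markers 3 of 6 rose over both guides, 3 with guide 1 alone and 0 with guide 2 alone, and Cr2 is one of the 6. The summed level of 5 follicular markers was 678 to 1060 RPKM in KO of guide 1 and 744 to 871 RPKM in KO of guide 2, against 1110 to 1360 RPKM and 1040 to 1150 RPKM in WT. Of these 5 markers 2 fell and 0 rose over both guides, and 0 were called in either arm alone. Cxcr5, one of the 5, was not called and stood at 96.4 to 122 RPKM in KO, against 76.7 to 96.3 RPKM in WT, the other way from the sum, and Ccr7 overlapped at 104 to 230 RPKM in KO and 135 to 261 RPKM in WT. No marker of either list was at 0 throughout, and their part in the differences of Nfatc1, Cr2, Ptpn22 and Prkcd was not tested. In bulk libraries more cells of a kind and more RNA per cell cannot be told apart.

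Plasmablasts were compared with activated B cells to ask how the signalling genes change as cells differentiate. Over both genotypes 16 of the 38 genes fell and 0 rose, which is 42.1%, against 11% of all 9986 genes called, 2.92% higher and 8.11% lower. The median log2 difference was -0.64 over the 38 genes and -0.17 over all genes. Scaling the libraries to a common median moved the median of all genes by 0.17 to 0.00 and left that of the 38 genes at -0.48, with 11 lower and 0 higher. With quantile normalization 16 were lower and 1 higher. Over all genes 292 were called higher and 810 lower, against 771 and 770 with quantile normalization and 524 and 515 with the common median. Leaving out single libraries moved the count of 16 between 10, without plasmablast WT library 1 or 2, and 26, without plasmablast KO library 3. Without the 3 libraries 27 genes were called, 25 lower and 2 higher, against 55.8% of all genes called, 36.7% lower and 19.1% higher. All 16 genes were among the 27.

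Inhibitory receptors held the largest decreases. Cd22 (Entrez 12483, chromosome 7, 30865404 to 30880342 on GRCm38), a sialic acid binding lectin that recruits SHP-1, was at 4.20, 2.55 and 11 RPKM in plasmablast KO libraries and 1.40 and 0.672 RPKM in plasmablast WT libraries. Activated B cells held 55.8, 55.8 and 49.0 RPKM of Cd22 in KO libraries and 81.1, 61.5 and 27.0 RPKM in WT libraries. Every plasmablast library was below every activated one. Its log2 difference was -3.94 (SE 0.36, adjusted p = 0.000426), and without the 3 libraries the plasmablast mean was 3.47% of the activated mean. The value of 11 RPKM rested on 6 reads of plasmablast KO library 3.

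Cd72 (Entrez 12517, chromosome 4, 43447724 to 43455102) was at 4.62, 4.49 and 6.07 RPKM in plasmablast KO and 4.79 and 2.59 RPKM in plasmablast WT libraries, against 28.6, 27.3 and 27.6 RPKM in activated KO and 37.5, 25.9 and 16.0 RPKM in activated WT libraries. Siglecg (Entrez 243958, chromosome 7, 43408192 to 43418349), another sialic acid binding inhibitor, was at 2.20, 2.14 and 4.90 RPKM in plasmablast KO and 2.31 and 1.78 RPKM in plasmablast WT libraries, against 17.9, 16.7 and 16.2 RPKM in activated KO and 22.4, 16.6 and 9.14 RPKM in activated WT libraries. The stages do not overlap for either gene. Cd72 fell by 2.39 (SE 0.22, adjusted p = 0.000489) and Siglecg fell by 2.30 (SE 0.25, adjusted p = 0.000891) on the log2 scale. In the activated WT group the library labelled WT 3 held the lowest level of all 3 receptors.

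Fcgr2b, the low-affinity IgG receptor and the fourth inhibitory receptor of the set, was not called. It was at 27.2, 28.3 and 13 RPKM in plasmablast KO and 28.1 and 26.2 RPKM in plasmablast WT libraries, against 30, 27.9 and 23.7 RPKM in activated KO and 26.6, 27.2 and 25.8 RPKM in activated WT libraries. Its log2 difference was -0.14 (SE 0.20, adjusted p = 0.696), and -0.02 (SE 0.07, adjusted p = 0.816) without the 3 libraries. The stages overlap, and 3 of the 4 inhibitory receptors fell.

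**Figure D4:**
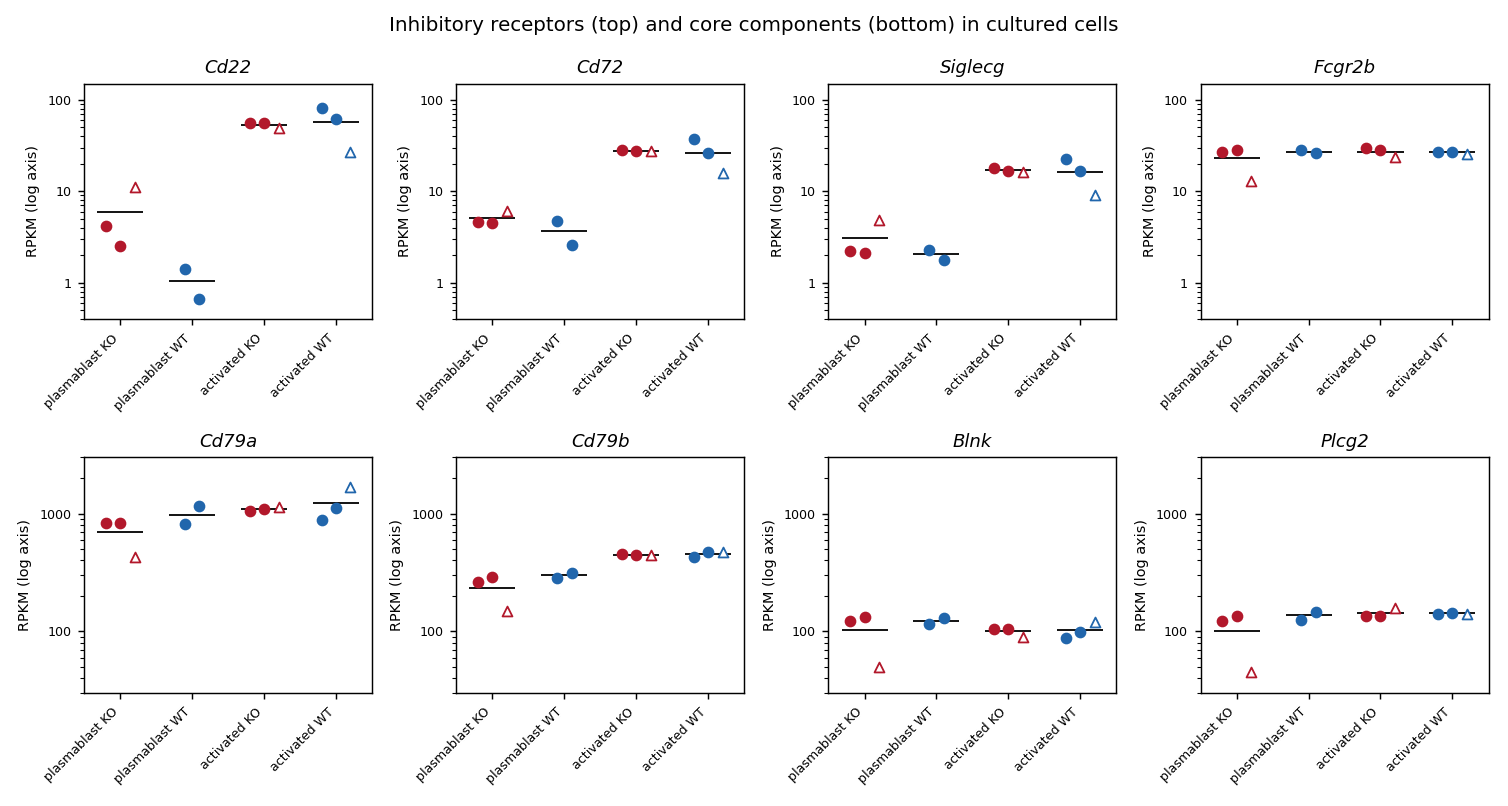
RPKM on a log axis of the 4 inhibitory receptors (top) and 4 core components (bottom) in each cultured library, plasmablasts left of activated B cells; bars are group means, and open triangles mark the 3 libraries that stand apart or go against their labels. Cd22, Cd72 and Siglecg are lower in every plasmablast library than in any activated one, whereas Fcgr2b, Blnk and Plcg2 overlap between the stages.

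The phosphatase that these receptors recruit was lower as well. Ptpn6 (Entrez 15170, chromosome 6, 124720707 to 124738709) was at 33.1, 33.5 and 11.7 RPKM in plasmablast KO and 28.2 and 30.5 RPKM in plasmablast WT libraries, against 78.5, 89.2 and 110 RPKM in activated KO and 122, 103 and 61.5 RPKM in activated WT libraries. It fell by 1.76 on the log2 scale (SE 0.30, adjusted p = 0.00668), with no overlap between stages. Inpp5d, the lipid phosphatase SHIP-1, averaged 16.8 ± 2.41 RPKM in plasmablasts (SD, n = 5) and 27.0 ± 1.89 RPKM in activated cells (SD, n = 6), and fell by 0.64 (adjusted p = 0.0155). Dok3, an adaptor that carries SHIP-1, averaged 77.2 ± 10.9 RPKM in plasmablasts and 74.2 ± 7.60 RPKM in activated cells and was not called (0.06, adjusted p = 0.835).

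Among the receptor chains Cd79b fell by 0.80 (SE 0.21, adjusted p = 0.0401), and Cd79a was not called at -0.50 (SE 0.29, adjusted p = 0.300). Cd79b was at 265, 292 and 148 RPKM in plasmablast KO and 286 and 313 RPKM in plasmablast WT libraries, against 452, 448 and 448 RPKM in activated KO and 429, 468 and 474 RPKM in activated WT libraries. The stages of Cd79b do not overlap. Cd79a was at 839, 837 and 428 RPKM in plasmablast KO and 810 and 1150 RPKM in plasmablast WT libraries, against 1050, 1090 and 1140 RPKM in activated KO and 880, 1110 and 1690 RPKM in activated WT libraries. Here 1 plasmablast WT library reached the activated range, and 1690 RPKM was of the library labelled WT 3. Ms4a1, the B cell surface protein CD20, averaged 41.4 ± 16.3 RPKM in plasmablasts and 92.4 ± 14.6 RPKM in activated cells and fell by 1.22 (adjusted p = 0.0472). Cd81 averaged 98.5 ± 27.8 RPKM in plasmablasts and 77.5 ± 5.92 RPKM in activated cells, was not called with all libraries (0.31, adjusted p = 0.416) and rose by 0.48 without the 3 libraries (adjusted p = 0.000322).

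Of the 4 Src family kinases Lyn and Blk fell. Lyn was at 18.2, 19.6 and 11.7 RPKM in plasmablast KO and 15.8 and 13 RPKM in plasmablast WT libraries, against 28.6, 29.3 and 32.1 RPKM in activated KO and 33.7, 32 and 25.3 RPKM in activated WT libraries. It fell by 0.94 (SE 0.16, adjusted p = 0.00734) with no overlap. Blk, a kinase largely kept to the B lineage, averaged 15.9 ± 3.30 RPKM in plasmablasts and 50.4 ± 2.83 RPKM in activated cells and fell by 1.63 (adjusted p = 0.000589). Fyn averaged 14.7 ± 4.26 RPKM in plasmablasts and 13.6 ± 1.20 RPKM in activated cells, and was not called in either fit. Lck, best known from T cells, was at 53.9 RPKM in plasmablast KO library 3, from 13 reads, and at 0.246 to 1.02 RPKM in the other 4 plasmablast libraries, against 3.41 to 5.04 RPKM in the 6 activated libraries. Lck was not called with all libraries (-0.77, adjusted p = 0.579) and fell by 1.66 without the 3 (adjusted p = 3.51e-07).

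Syk fell and Btk did not pass the test with all libraries. Syk was at 52.4, 50.2 and 17.1 RPKM in plasmablast KO and 51.3 and 53.8 RPKM in plasmablast WT libraries, against 89.6, 81.9 and 82.6 RPKM in activated KO and 87.7, 90.5 and 91.6 RPKM in activated WT libraries. The change of Syk was -0.99 (SE 0.27, adjusted p = 0.0466), and -0.74 (adjusted p = 1.81e-06) without the 3 libraries. Btk was at 39.9, 43.1 and 4.89 RPKM in plasmablast KO and 40 and 37.1 RPKM in plasmablast WT libraries, against 49.6, 43.2 and 40.1 RPKM in activated KO and 43.5, 47.9 and 46.3 RPKM in activated WT libraries. The lowest of these rested on 1 read, and 1 of the remaining plasmablast libraries lay within the activated range. Btk changed by -0.64 (adjusted p = 0.427) with all libraries, and fell by 0.20 (adjusted p = 0.0437) without the 3.

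Adaptors differed from each other. Bank1 (Entrez 242248, chromosome 3, 136053363 to 136326141), shown above for its promoter site, was at 10.6, 9.35 and 3.98 RPKM in plasmablast KO and 7.16 and 7.44 RPKM in plasmablast WT libraries, against 42.4, 28.6 and 22.4 RPKM in activated KO and 35.1, 32.9 and 22.2 RPKM in activated WT libraries. It fell by 1.88 (SE 0.26, adjusted p = 0.00278) with no overlap. Grb2, the adaptor that brings SOS1 to the complex, fell by 0.68 (adjusted p = 0.0108). Blnk was at 123, 133 and 50.0 RPKM in plasmablast KO and 115 and 131 RPKM in plasmablast WT libraries, against 105, 104 and 90.4 RPKM in activated KO and 88.4, 98.2 and 119 RPKM in activated WT libraries. The stages overlap, and Blnk changed by 0.09 with all libraries (adjusted p = 0.841). Without the 3 libraries Blnk rose by 0.34 (adjusted p = 0.00234). Plcg2 was called in neither fit, at -0.35 (adjusted p = 0.458) and -0.06 (SE 0.08, adjusted p = 0.515). Dapp1 changed by -0.22 (adjusted p = 0.355) with all libraries and fell by 0.37 (adjusted p = 0.0027) without the 3.

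In the branches below the phospholipase, Prkcb was the gene with the lowest p of the set. Prkcb (Entrez 18751, chromosome 7, 122289104 to 122634402) encodes protein kinase C beta, which links the receptor to BCL10 and MALT1 and so to NF-kB. Its level was 21.8, 18.1 and 18.1 RPKM in plasmablast KO and 21.3 and 17.2 RPKM in plasmablast WT libraries, against 77.2, 76.2 and 86.1 RPKM in activated KO and 106, 94.2 and 59.0 RPKM in activated WT libraries. The 5 plasmablast values are close together and far below the activated ones, although that of plasmablast KO library 3 rested on 6 reads. Prkcb fell by 2.04 (SE 0.18, adjusted p = 0.000288), and without the 3 libraries its plasmablast mean was 22.1% of the activated mean. Malt1 changed by -0.48 (adjusted p = 0.082) and Bcl10 by -0.13 (adjusted p = 0.569), and Malt1 fell by 0.56 (adjusted p = 0.00153) without the 3 libraries.

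Pik3ap1 averaged 20.5 ± 3.45 RPKM in plasmablasts and 56.6 ± 7.85 RPKM in activated cells and fell by 1.46 (SE 0.15, adjusted p = 0.000838). The PI3K subunits themselves were not called in either fit, at -0.25 for the catalytic Pik3cd and 0.16 for the regulatory Pik3r1 with all libraries. Pik3cd stood at 63.8 ± 4.46 RPKM in plasmablasts and 63.9 ± 3.81 RPKM in activated cells (SD, n = 4 each) without the 3 libraries. Rac2, a GTPase of the haematopoietic cytoskeleton, averaged 73.3 ± 18.6 RPKM in plasmablasts and 173 ± 16.9 RPKM in activated cells and fell by 1.25 (adjusted p = 0.00619). Vav1, its exchange factor, changed by -0.46 (adjusted p = 0.216) and fell by 0.30 (adjusted p = 0.00407) without the 3 libraries.

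Of the 6 calcium and NFAT genes Nfatc3, a second NFAT factor, was the 1 called with all libraries. It averaged 19.1 ± 2.56 RPKM in plasmablasts and 30 ± 1.46 RPKM in activated cells, and fell by 0.62 (adjusted p = 0.0122). Without the 3 libraries Itpr1, Ppp3ca and Nfatc1 also fell, by 1.49 (adjusted p = 1.15e-06), 0.53 (adjusted p = 4.92e-05) and 0.40 (adjusted p = 0.000722). Itpr1, an IP3 receptor, was at 14.4 RPKM in plasmablast KO library 3 and 1.56 to 3.11 RPKM in the other plasmablast libraries, against 5.46 to 11.9 RPKM in activated libraries. Stim1, the calcium sensor of the endoplasmic reticulum, was the 1 gene of the set that was higher in every plasmablast library than in every activated one, at 5.43 to 6.32 RPKM in plasmablasts and 4.67 to 5.34 RPKM in activated cells. Over all genes 4.18% were higher in every plasmablast library, so 1 of 38 is no more than the background. Stim1 was not called (0.20, SE 0.11, adjusted p = 0.272). In the Ras branch Rasgrp3 changed by -0.70 (adjusted p = 0.259) and Sos1 by -0.14 (adjusted p = 0.624), and Rasgrp3 fell by 0.35 (adjusted p = 0.000868) without the 3 libraries. Among the 16 genes called with all libraries, the call was lost in 11 of 19 alternatives for Cd79b, in 10 for Ms4a1 and in 10 for Syk. In all, 18 genes of the set were lower in every plasmablast library than in every activated one, against 15.4% of all genes.

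**Figure D5:**
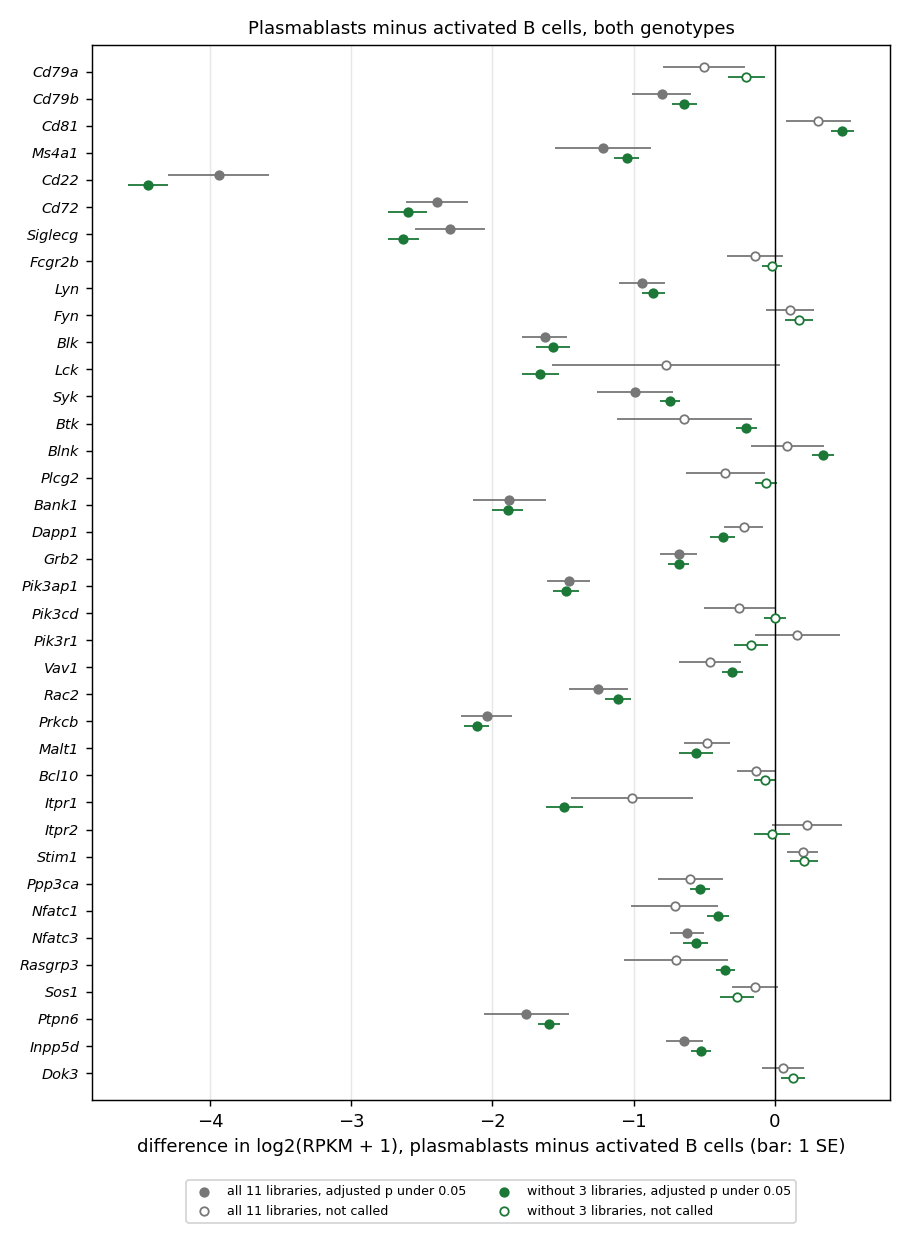
Difference in log2(RPKM + 1) of each gene between plasmablasts and activated B cells, genotypes averaged, with all 11 libraries (grey) and without 3 libraries (green), and bars of 1 SE; filled points were called. Cd22 lies furthest left at -3.94, most filled points lie left of 0, and Cd81 and Blnk are filled right of 0 without the 3 libraries.

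The genes called by genotype were then set side by side. In KO cells 9 of the 38 genes fell and 0 rose, against 3.44% of all genes called, 0.771% higher and 2.67% lower. In WT cells 6 fell and 0 rose, against 1.76% of all genes called, 0.330% higher and 1.43% lower. The 2 comparisons share no library but come from 1 fit with a shared estimate of the spread, so their calls are not independent. All 6 genes called in WT (Cd22, Cd72, Siglecg, Blk, Pik3ap1 and Prkcb) were also called in KO and made up 66.7% of the KO calls. The KO calls also held Bank1, Ptpn6 and Rac2. The overlap of calls over all genes was not counted. Without the 3 libraries 24 were called in KO, 1 higher and 23 lower (33.6% of all genes, 12.1% higher and 21.5% lower), and 26 in WT, 2 higher and 24 lower (46.3%, 15.5% higher and 30.7% lower), with 24 in both. The count without any 1 library was 1 to 20 in KO and 0 to 23 in WT, highest without plasmablast KO library 3 in both. The decrease of Cd22 was -3.17 (SE 0.48) in KO and -4.71 (SE 0.54) in WT.

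Whether the change between stages differed by genotype was tested directly. The difference was called for 0 of the 38 genes and 0 of 9986 (0%, limma), with 10 genes at an unadjusted p under 0.05. Lowest in p were Cd22 (1.54, SE 0.72), Fyn (-0.47), Itpr2 (0.60) and Pik3ap1 (0.34), each at an adjusted p of 0.816. Without the 3 libraries 0 of the 38 and 0.0304% of all genes were called, and Cd22 stood at 1.44 (SE 0.29, adjusted p = 0.167).

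KO and WT cells were also compared within each cultured stage. In plasmablasts 0 of the 38 genes and 0 of 9986 (0%, limma) were called, with 85 genes at an unadjusted p under 0.05. Cd22 was higher in each KO library than in each WT library (values above), at a log2 difference of 1.59 (SE 0.54, adjusted p = 0.609). Without plasmablast KO library 3 and the 2 activated libraries it was 1.1 (SE 0.20, adjusted p = 0.0873), against 0.0710% of all genes called. Pik3ap1 was the other gene with every KO library above every WT library, at 22.1, 24.7 and 20.1 RPKM in KO, against 20.1 and 15.3 RPKM in WT to the printed digits, a difference of 0.33 (adjusted p = 0.609). All genes higher in every KO library made up 8.22%. Fyn (-0.49) and Lck (1.96) were next in order of p (adjusted p = 0.609 each), and Lck rests on the 13 reads of KO library 3.

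In activated B cells 0 of the 38 genes and 0 of 9986 (0%, limma) were called, with 2 genes at an unadjusted p under 0.05. Lowest in p were Grb2 (-0.11), Sos1 (-0.12), Itpr2 (-0.17) and Stim1 (0.07), each at an adjusted p of 1. The libraries labelled KO 3 and WT 3, whose Thy1 and Irf8 go against their labels, are in this comparison. Without them and plasmablast KO library 3, 0 of the 38 genes were called against 0.710% of all genes, and the lowest p values were those of Ptpn6 (-0.42, SE 0.11, adjusted p = 0.126), Prkcb (-0.38, adjusted p = 0.211), Grb2 (-0.27, adjusted p = 0.332) and Itpr1 (-0.41, adjusted p = 0.418). Ptpn6 was at 78.5 and 89.2 RPKM in the remaining KO libraries, against 122 and 103 RPKM in the remaining WT libraries.

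Levels were last set side by side over the 3 stages, with no test, since naive and cultured tables were normalized separately. Means are given over naive, activated and plasmablast libraries of both genotypes without the 5 libraries. Of the 38 genes 33 had a lower mean in activated than in naive cells, 33 a lower mean in plasmablasts than in activated cells, and 30 were lower at both steps. Over all 10178 genes 50.0% were lower at the first step, 63.9% at the second and 36.0% at both. Cd22 averaged 190 RPKM in naive, 63.6 RPKM in activated and 2.21 RPKM in plasmablast libraries. Siglecg averaged 111, 18.4 and 2.11 RPKM at those stages, Ptpn6 349, 98.2 and 31.3 RPKM, and Bank1 139, 34.7 and 8.64 RPKM. These genes stepped down at both transitions, whereas Prkcb (121, 88.5 and 19.6 RPKM) had most of its decrease in plasmablasts.

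Other genes of the set differed less between stages. Plcg2 averaged 148 RPKM in naive, 139 RPKM in activated and 133 RPKM in plasmablast libraries. Cd79a averaged 1340, 1030 and 908 RPKM at the 3 stages, Blnk 140, 98.9 and 125 RPKM, and Fcgr2b 24.2, 27.9 and 27.5 RPKM. Plasmablasts were the highest stage for 3 genes, Cd81 (76.5, 78.8 and 110 RPKM), Fyn (10.6, 14.2 and 16.2 RPKM) and Stim1 (5.48, 4.89 and 5.81 RPKM). The share of all genes highest in plasmablasts was not counted, so these 3 cannot be set against a background. Nfatc1, which rose in naive KO cells, averaged 76.2 RPKM in naive, 28.6 RPKM in activated and 21.4 RPKM in plasmablast libraries.

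Of 79 further pathway genes 73 were tested in cultured cells, and in plasmablasts against activated cells over both genotypes 2 rose and 18 fell, against 2.92% of all genes higher and 8.11% lower. Among those with the largest change were Fcrl5 (-2.52, adjusted p = 0.00973), Pirb (-2.06, adjusted p = 0.00275) and Cd37 (-1.99, adjusted p = 0.00313), given as log2 differences. Fcrl5 and Pirb are inhibitory receptors and Cd37 is a tetraspanin of B cells. Fcrl5 averaged 4.62 RPKM in plasmablasts (range 0 to 5.92) and 27.9 RPKM in activated cells (19.7 to 34.0). Pirb was at most 0.517 RPKM in plasmablasts and 1.40 to 6.12 RPKM in activated cells. Without the 3 libraries 10 rose and 40 fell, against 19.1% of all genes higher and 36.7% lower.

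Stage markers were also compared. The summed level of 6 plasma cell markers was 1620 to 2590 RPKM in plasmablast KO and 2080 to 3720 RPKM in plasmablast WT libraries. In activated cells it was 997 to 1390 RPKM in KO and 708 to 1940 RPKM in WT libraries, so the stages overlap. Of the 6 markers 3 rose and 0 fell over both genotypes with all libraries. Sdc1, one of the 6, is the gene of CD138, by which the stages were sorted, so it is no independent marker of stage. It was at 3.03 to 34.1 RPKM in plasmablasts and 0.226 to 0.79 RPKM in activated cells. Prdm1, one of the 6, overlapped at 27.3 to 79.8 RPKM in plasmablasts and 56.7 to 94.6 RPKM in activated cells. The summed level of 5 follicular markers was 21.8 to 43.6 RPKM in plasmablast KO and 17.2 to 24.9 RPKM in plasmablast WT libraries, against 192 to 259 RPKM in activated KO and 151 to 314 RPKM in activated WT libraries. Irf8 itself was lower in plasmablasts, at -1.89 on the log2 scale (adjusted p = 0.000854). The part of these shifts in the decreases of the signalling genes was not tested.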

How the data were processed

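RNA of sorted spleen B cells was measured in 23 libraries (SMART-seq v4 and Nextera XT, per the labels' protocols). The deposited values are RPKM computed by the authors, with naive and cultured cells in separate tables. The submitters' processing notes name STAR and mm10. The STAR version, the counter and the annotation are not given in the sources used here. Tables were analysed separately. Values were taken as log2(RPKM + 1), which makes differences of genes near 1 RPKM smaller than their ratios, and a gene was tested where 2 or more libraries reached an RPKM of 1. R 4.3.3 with limma 3.58.1 fitted a mean per group with a trend in the spread, two-sided. P-values were adjusted across the whole table (Benjamini-Hochberg), and a gene was called under 0.05. The limma step was tested on simulated data. Reads were estimated from value steps, by choosing a library size at which low values give whole reads. The share within 0.2 of a whole number (100%) follows from that choice and does not check the estimate. The number of libraries limits the precision.

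The 38 members, the further pathway genes and the marker lists were chosen with earlier results of these data known. Text names all called members up to 20 per comparison, the 4 lowest in p where fewer than 4 were called, and up to 4 further pathway genes with the largest called change, of which 1 is not reported here. The labels do not say that libraries of a group came from separate animals or cultures, so p-values cover the spread between samples, which may be technical. Same-lettered or same-numbered libraries were treated as unpaired. Alternatives were pseudocount, filter, 2 scalings, no trend, quality weights, a replicate block, and leaving libraries out. A planned search for motifs in proteins was not run.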

Additional observations from a re-analysis of the deposited data

How the results depend on the processing

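The count of called genes of the set stayed within 1.5 times of its value in 158 of 194 alternatives and did not in 36. Most comparisons had 0 genes of the set called to begin with, and 0 against 0 was counted as unchanged. The 158 is therefore no measure of how stable the counts are where genes were called. In naive KO against WT over both guides, 1 gene was called, 0 with no trend in the spread and 4 with quality weights. Guide 1 alone gave 0, and 1 with quantile normalization, 2 with quality weights and 1 without the 2 libraries. Activated KO against WT gave 0, and 24 with quality weights, which also called 6751 of all genes. The estimate of the quality weights stopped before convergence in 1 fit. Plasmablasts against activated cells gave 6 in WT (11 with quantile normalization, 31 with quality weights, 26 without the 3 libraries), 9 in KO (25 and 24 with the last 2) and 16 over both genotypes (30 and 27). Leaving out single libraries gave 0 to 3 in naive cells over both guides, 0 to 2 with guide 1, 0 to 23 between stages in WT, 1 to 20 in KO and 10 to 26 over both genotypes. The 3 came without naive KO guide 1 library A, and the 2 without library B of that group. The highest of the stage counts, 23, 20 and 26, came without plasmablast KO library 3, and the lowest without plasmablast WT library 2, without activated KO library 2 and without either plasmablast WT library. Of the 16 genes called between stages 9 (Bank1, Blk, Cd22, Cd72, Pik3ap1, Prkcb, Ptpn6, Rac2 and Siglecg) kept the call in all 19 alternatives. The Itpr2 difference, not called, turned sign without the 3 libraries in activated KO against WT (0.06) and in the stage change of KO less that of WT (-0.02). The causes were not tested.

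Counts over all genes moved too. Naive calls over both guides were 191, and 337 without the 2 libraries and 527 with quality weights. Guide 1 calls were 113, and 60 with a pseudocount of 0.1, 180 and 231. Stage calls over both genotypes were 1102, and 5507 without the 3 libraries and 6280 with quality weights. Stage calls higher and lower were 292 and 810, and 771 and 770 with quantile normalization.

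Libraries sharing a letter or number correlated at -0.243 to 0.254 after group means were removed. With 2 or 3 libraries in a group, some of them standing apart, these values cannot decide whether the libraries are paired. The tests were unpaired because the labels do not say that a letter or number marks the same animal or culture. A fit with the replicate block called 1 gene of the set in naive cells over both guides, 7 between stages in WT, 7 in KO and 16 over both genotypes, and 0 elsewhere. Depth limits plasmablast KO library 3, where most genes of the set have under 10 reads.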
